A study of Mus musculus with 14 samples.

Results

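The genes described here are the 10 that stood highest above the green fluorescent protein (GFP) control, other than the transduced Pou5f1, in mouse embryonic fibroblasts 3 days after infection with viruses for reprogramming factors. They are Akr1c18, Sostdc1, Crym, Tmem229b, Aldh3a1, Gna14, Ceacam1, Pcolce2, Anxa10 and P2ry1, 10 of the 19938 genes measured. They were chosen by measured values, the difference between the factor and GFP arrays of day 3, so that difference is given for them as a description without a test. Each gene is read from the probe set that the array annotation assigns to it alone and, where there are several, from the one with the highest mean over the 14 arrays. Only Tmem229b had a second probe set.

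Fibroblasts grown from mouse embryos (MEFs) were infected with SKO retroviruses, which carry Sox2, Klf4 and Oct4 (the product of Pou5f1), or with a GFP retrovirus as the control. On day 2 both kinds of culture went into mouse embryonic stem cell medium with serum and leukaemia inhibitory factor, with vitamin C at 50 µg/ml in some cultures and none in the others. RNA was taken from GFP cells on day 3 and from SKO cells on days 3, 4, 5, 6, 8 and 10, which gave 1 array for each virus, medium and day: 2 GFP arrays and 12 SKO arrays. No condition and day had a replicate, and the array values are log2 signals, so a difference of 1 is a doubling.

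Retroviral factors are expressed in fibroblasts within days, long before stable pluripotent colonies form, and many genes that respond first are not pluripotency genes. The 10 genes encode proteins of unlike function. They include enzymes of steroid and aldehyde handling, a protein that binds thyroid hormone, and secreted modulators of growth factors and collagen. The others are a cell adhesion molecule, a nucleotide receptor, a G protein subunit and 2 membrane-associated proteins. Several of the 10 are best known from adult tissues, such as Akr1c18 from the ovary, Aldh3a1 from the cornea and Anxa10 from the stomach.

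Array medians lay between 5.19 and 5.28. Pou5f1 was at 4.06 to 4.10 in GFP cells and 11.2 to 12.6 on the SKO arrays, Klf4 at 7.43 to 7.51 and 8.37 to 9.29, and Sox2 at 4.28 to 4.81 and 5.14 to 6.28. The defining fibroblast genes Col1a1, Col1a2 and Vim were at 11.47 or higher on every array. On day 3, 7 of 14 fibroblast markers were lower in SKO cells, where 8.43% of all genes were. The mean signal of the 14 was 9.78 to 10.1 in GFP cells and 9.32 to 9.36 in SKO cells. Of 10 neural markers, 3 were higher (Gap43 by 2.17, Stmn2 by 2.12 and Nes by 1.01), where 9.22% of all genes were. The mean signal of all 10 was 5.65 to 5.78 in GFP cells and 6.15 to 6.19 in SKO cells. Macrophage markers were at 4.72 to 5.03 in GFP cells and 4.46 to 4.62 on SKO day 3, and epithelial markers at 4.80 to 4.88 and 4.71 to 4.79. Their part in the differences below was not tested, and in bulk RNA a change in the number of cells of a type cannot be told apart from a change of RNA per cell. The second principal component of all genes (20.1% of the variance) placed the SKO arrays of days 3 and 5 between -35.9 and -16.4 and those of days 4, 6 and 8 between 4.08 and 27.1, with day 10 at -2.85 and 0.69. Changes over days were tested mainly as day 8 against day 4 and as day 10 against day 5. Days 4 and 8 lay on the same side of this component but apart. Without vitamin C they were at 4.08 and 23.7, and with it at 9.62 and 19.8. Day 8 against day 4 thus spans part of this component. The day 5 arrays were at -24.4 and -16.4, apart from those of day 10, so day 10 against day 5 also spans this component.

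RefSeq promoter sequences were at hand for 7 of the 10 genes, Tmem229b with 2 start sites, and are given as the 250 bases before the annotated start (assembly GRCm38.p6). The genes stood high together on day 3 under factors with known DNA words, so 3 promoters are printed, of the gene with the largest day 3 difference (Akr1c18), a gene that rose from day 4 to day 8 (Ceacam1) and one that returned towards the GFP level (Anxa10). All lie on the minus strand and read 5′ to 3′ towards the start site: Akr1c18 at chr13:4150647-4150896, Ceacam1 at chr7:25477626-25477875 and Anxa10 at chr8:62123194-62123443. Capitals mark any match, on either strand, to the octamer ATGCAAAT bound by Oct4, the Sox words ACAATG and ACAAAG, the Klf box CCACCC or the TATA box TATAAA.
Akr1c18: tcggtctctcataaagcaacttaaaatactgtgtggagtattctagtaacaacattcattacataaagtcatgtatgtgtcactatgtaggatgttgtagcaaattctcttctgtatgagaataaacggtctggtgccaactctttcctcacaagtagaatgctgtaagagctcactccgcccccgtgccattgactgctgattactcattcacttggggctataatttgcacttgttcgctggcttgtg
Ceacam1: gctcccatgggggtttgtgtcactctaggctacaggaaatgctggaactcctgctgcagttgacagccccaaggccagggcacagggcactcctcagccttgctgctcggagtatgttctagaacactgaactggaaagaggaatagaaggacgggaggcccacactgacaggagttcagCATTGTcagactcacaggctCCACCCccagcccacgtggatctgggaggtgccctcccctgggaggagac
Anxa10: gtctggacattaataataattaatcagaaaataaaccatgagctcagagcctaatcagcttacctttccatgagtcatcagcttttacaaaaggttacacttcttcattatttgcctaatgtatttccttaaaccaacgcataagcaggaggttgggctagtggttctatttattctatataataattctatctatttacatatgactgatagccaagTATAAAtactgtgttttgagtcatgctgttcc
The octamer was in 0 of the 8 promoters, and in 1.60% of all 32851 promoters of this length. ACAATG occurred in 1 of 8 (Ceacam1, 70 bases before the start, on the opposite strand) and in 10.7% of all. ACAAAG occurred in 1 of 8 (Pcolce2) and in 16.5% of all. CCACCC occurred in 4 of 8 (P2ry1, Ceacam1, Pcolce2 and 1 Tmem229b start) and in 28.1% of all, and TATAAA in 2 of 8 (Anxa10 and the same Tmem229b start) and in 12.4% of all. Akr1c18 held none of these words, as the absence of capitals shows. A CpG content of at least 0.6 of that expected from base composition was found in 2 of 8 promoters (P2ry1 at 0.654 and the other Tmem229b start at 0.799) and in 34.0% of all.

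On day 3 the mean difference between SKO and GFP ran from 5.83 for Akr1c18 to 2.94 for P2ry1 on the log2 scale, with a median of 3.38 or 10.4-fold. The GFP mean of 5 genes (Akr1c18, Aldh3a1, Gna14, Ceacam1 and Anxa10) was below 4.54, a weak signal under which the mean of 6646 of the 19938 genes lies, and folds over such a base can be understated. Over all genes tested on that contrast, 9.22% were called higher and 8.43% lower with SKO by limma at an adjusted p under 0.05. Pou5f1 itself stood first with 7.17. P2ry1, the last gene inside the list, was at 2.94, and the next genes outside it were Mfsd6, which encodes a membrane protein of the transporter superfamily, at 2.88, and Scg5, which encodes a chaperone of neuroendocrine cells, at 2.87.

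**Figure D1:**
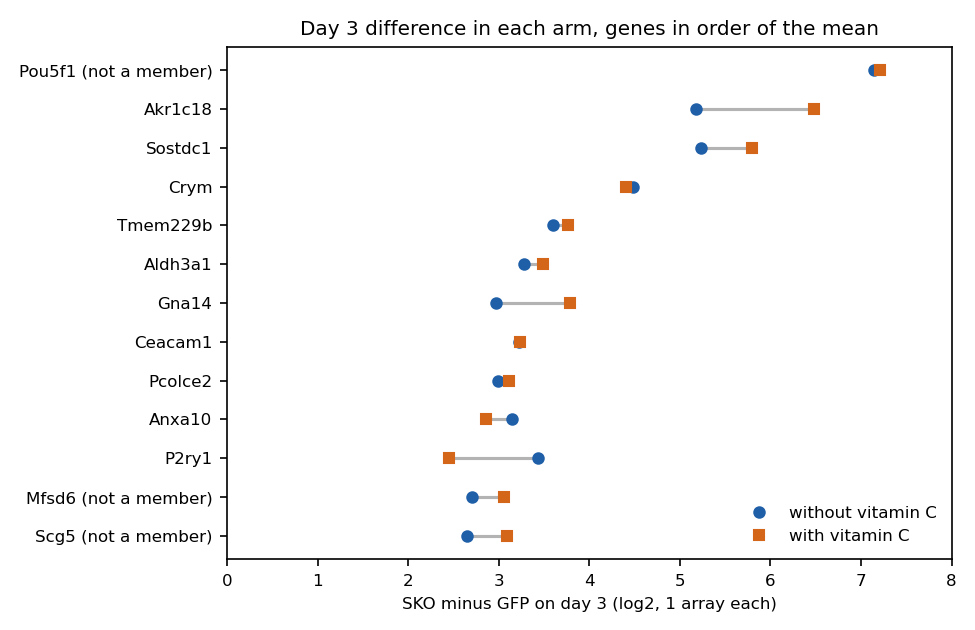
Difference between SKO and GFP on day 3 (log2, horizontal axis) for the 13 genes of largest mean difference (vertical axis), with circles for the pair of arrays without vitamin C and squares for the pair with it. Akr1c18 lies at 5.18 and 6.48, and the order of the genes just inside and outside the list would change with the arm: P2ry1 lies at 3.43 and 2.45, Mfsd6 at 2.70 and 3.06.

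On the 10 SKO arrays of days 4 to 10, 9 of the 10 genes lay above both GFP arrays every time, the exception being Anxa10, and 8.47% of all genes did. The GFP arrays of day 3 took part in the choice of the genes, so this separation is a description. Over days 4 to 10 the genes took different courses. Aldh3a1, Ceacam1 and Gna14 rose from day 4 to day 8, 3 of 10 genes where 1.82% of all genes were higher and 0.421% lower. Sostdc1, P2ry1 and Anxa10 fell from day 5 to day 10, 3 of 10 where 0.517% of all genes were lower and 1.26% higher. No gene of the 10 passed the limma test in the other direction in either comparison. At an unadjusted p under 0.05, 1 was lower on day 8 than on day 4 and 0 were higher on day 10 than on day 5. Over all 19938 genes, 3084 and 2398 differed at that level in these comparisons, in either direction. A test for any difference among days 4 to 10 called 5 genes (Aldh3a1, Ceacam1, Gna14, Sostdc1 and Anxa10) and 9.99% of all genes. The median change of the 10 genes was 0.16 from day 4 to day 8 (all genes -0.04) and -0.23 from day 5 to day 10 (all genes -0.01). These tests used limma on the 10 SKO arrays of days 4 to 10 with Benjamini-Hochberg adjustment over all 19938 genes. Markers of other cell types moved over the same intervals. From day 4 to day 8, 3 of 14 epithelial markers (Epcam 4.22-fold), 3 of 18 pluripotency genes (Fbxo15 5.17-fold), 2 of 14 fibroblast, 1 of 12 macrophage and 1 of 10 endothelial markers were higher, and 1 of 10 neural and 2 of 9 muscle markers were lower. From day 5 to day 10, 6 of 12 macrophage markers (Mrc1 5.13-fold), 2 of 14 epithelial markers and 3 of 18 pluripotency genes were higher, and 1 of 10 neural and 1 of 9 muscle markers were lower. Over the SKO arrays of days 4 to 10 the mean signal spanned 4.45 to 5.93 for macrophage, 4.84 to 5.67 for epithelial and 4.62 to 5.67 for pluripotency genes. Their part in the changes of the 10 genes was not tested.

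**Figure D2:**
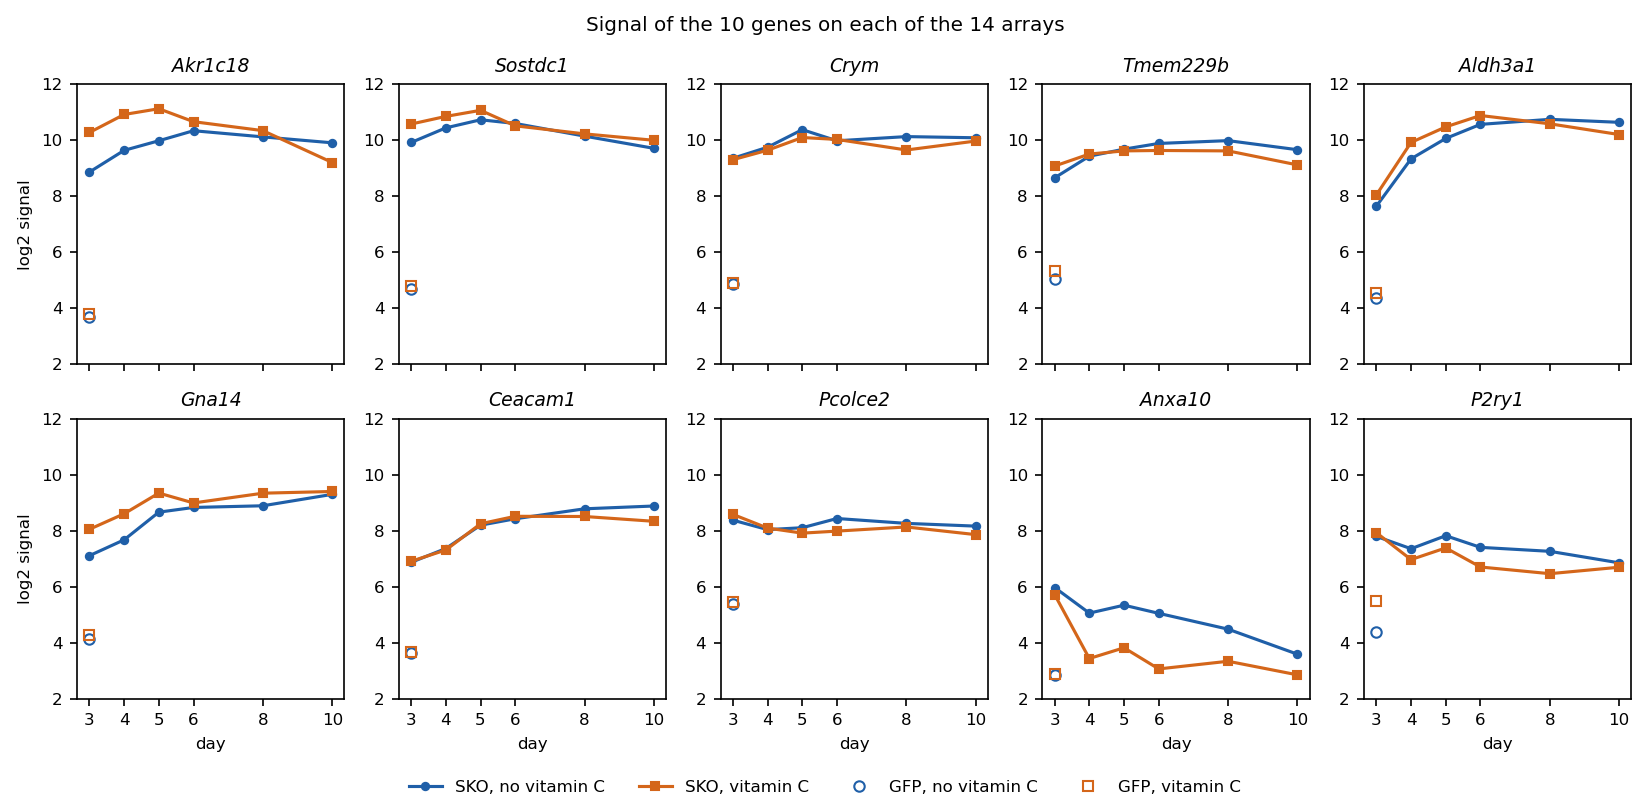
Log2 signal (vertical axis) of each of the 10 genes against the day (horizontal axis), 1 point per array, with filled circles for SKO without vitamin C, filled squares for SKO with it, and open symbols for the GFP arrays of day 3. In 9 panels both SKO lines stay above the open symbols on every day, and in the Anxa10 panel the vitamin C line drops to 3.43 on day 4 and 2.85 on day 10, the GFP arrays being at 2.83 and 2.86.

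**Figure D3:**
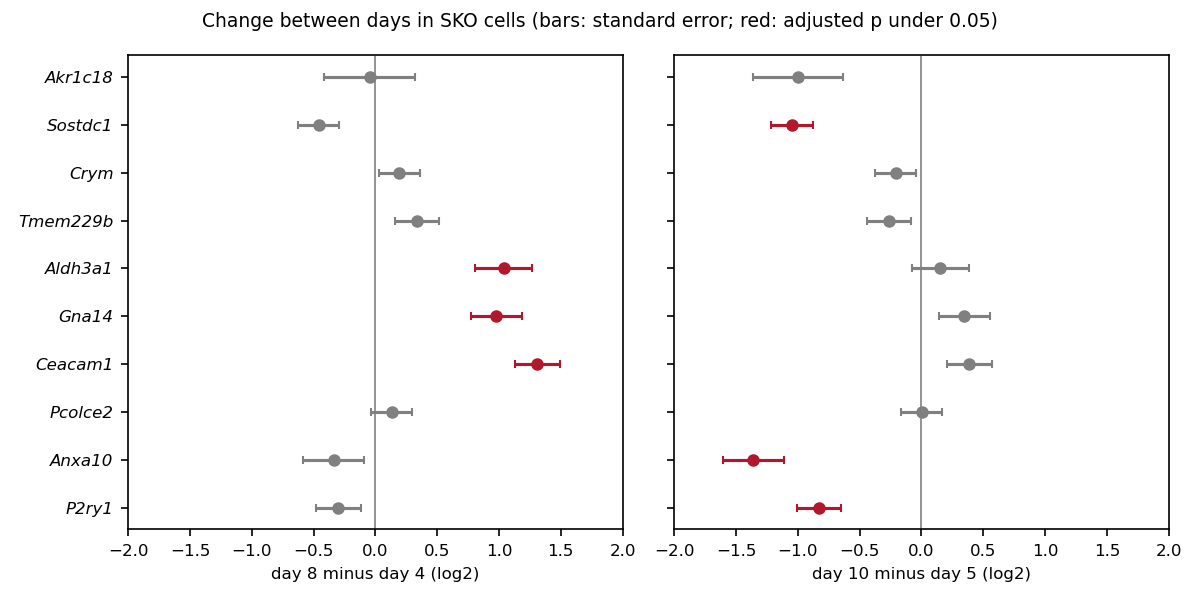
Change of each gene (log2, horizontal axes) from day 4 to day 8 on the left and from day 5 to day 10 on the right, as the mean of the arms with and without vitamin C, with the standard error as a bar and red for an adjusted p under 0.05. Aldh3a1, Gna14 and Ceacam1 are red at 1.04, 0.98 and 1.31 on the left, and Sostdc1, Anxa10 and P2ry1 at -1.05, -1.36 and -0.83 on the right.

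Akr1c18 encodes 20-alpha-hydroxysteroid dehydrogenase, the aldo-keto reductase that inactivates progesterone. It measured 3.69 in GFP cells without vitamin C and 3.80 with it, and 8.87, 9.65, 9.99, 10.35, 10.13 and 9.92 on days 3, 4, 5, 6, 8 and 10 in SKO cells without vitamin C. With vitamin C the SKO arrays read 10.28, 10.93, 11.13, 10.67, 10.35 and 9.21 on the same days. Every SKO array was thus far above both GFP arrays, and the array with vitamin C was the higher of the pair on every day but day 10. The mean SKO level was 57.0 times the GFP mean on day 3, 113 times on day 5 and 56.5 times on day 10. The change from day 5 to day 10 was -0.997 ± 0.37 (SE) and did not pass the test (adjusted p = 0.266, limma). The vitamin C difference moved by -0.32 ± 0.05 per day over days 4 to 10, with an adjusted p of 0.144 by limma. With an intensity trend in the variance model that adjusted p was 0.0235, and with array weights 0.0443.

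Of 14 other measured aldo-keto reductases, 13 of the Akr1 family and Akr7a5, 1 was higher in SKO cells on day 3 by limma, where 9.22% of all genes were, and 0 were lower. At an unadjusted p under 0.05, 2 were higher and 1 lower. The gene that passed was Akr1c14, a 3-alpha-hydroxysteroid dehydrogenase and the gene next to Akr1c18 on chromosome 13, at 4.35 to 4.72 on the GFP arrays and 5.76 to 6.13 on the SKO arrays (2.67-fold, adjusted p = 0.000954, limma). Akr1c13, the neighbour on the other side, differed by -0.12 ± 0.21 (adjusted p = 0.765, limma). Among 18 measured genes of progesterone and steroid metabolism only Hsd17b7, an enzyme of sterol synthesis, passed the test, at 1.65-fold.

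Aldh3a1 encodes an aldehyde dehydrogenase that is abundant in the cornea and is a textbook target of the aryl hydrocarbon receptor. It read 4.37 and 4.56 in GFP cells without and with vitamin C, and 7.65, 9.34, 10.07, 10.57, 10.76 and 10.65 over the 6 days in SKO cells without it. With vitamin C the values were 8.05, 9.93, 10.48, 10.89, 10.60 and 10.21. The lowest SKO arrays were those of day 3 in both arms, and no SKO array came near the GFP level. The mean excess over GFP was 10.5-fold on day 3, 36.0-fold on day 4 and 77.0-fold on day 6. From day 4 to day 8 it rose by 1.04 ± 0.23 (2.05-fold, adjusted p = 0.0439, limma). This call was lost without any 1 of the 4 arrays of these days (0.76 to 1.32, adjusted p 0.0778 to 0.206) and with array weights (adjusted p = 0.107).

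The day 3 test called 2 of 19 other aldehyde dehydrogenase genes higher and 5 lower, where 9.22% of all genes were higher and 8.43% lower. Aldh1a7 was higher by 3.08-fold, and Aldh1l1, a folate enzyme, and Aldh1a2, which makes retinoic acid, were lower by 2.12-fold and 1.84-fold. Aldh3a2, the neighbour of Aldh3a1 on chromosome 11, differed by 0.10 ± 0.16 (adjusted p = 0.735, limma). Of 8 measured genes of the aryl hydrocarbon receptor and its targets, Tiparp (2.41-fold) and Nqo1 (1.88-fold) were higher and Arnt, the partner of the receptor, was lower (1.53-fold). Cyp1b1, at a mean signal of 9.78, differed by -0.14 (adjusted p = 0.674, limma). Cyp1a1, Cyp1a2 and Ahrr, whose means lay below 4.54, differed by -0.05, 0.04 and -0.32 and were not called. The receptor gene Ahr fell from day 4 to day 8 (-0.68 ± 0.16, adjusted p = 0.0482, limma) while Aldh3a1 rose.

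Crym encodes mu-crystallin, a cytosolic protein that binds thyroid hormone. It read 4.88 and 4.91 in GFP cells and 9.36, 9.76, 10.39, 9.99, 10.14 and 10.10 in SKO cells without vitamin C. With vitamin C it read 9.31, 9.65, 10.10, 10.04, 9.66 and 9.98. The SKO arrays formed a narrow band well above the GFP arrays, with the lowest values on day 3. Crym was 21.8-fold above GFP on day 3 and between 28.1-fold and 40.9-fold on days 4 to 10, and neither day comparison passed the test (0.19 ± 0.17 and -0.21 ± 0.17, adjusted p = 0.614 and 0.732, limma). Of 12 measured genes of thyroid hormone handling, 0 were higher on day 3 by limma and 3 were lower, where 8.43% of all genes were. At an unadjusted p under 0.05, 0 were higher and 4 lower. These were the receptor genes Thra (2.26-fold lower) and Rxra (2.06-fold lower) and the deiodinase gene Dio2 (1.79-fold lower).

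Sostdc1 encodes a secreted antagonist of BMP and Wnt signalling. It measured 4.70 and 4.79 in GFP cells and 9.93, 10.45, 10.74, 10.61, 10.16 and 9.72 in SKO cells without vitamin C. With vitamin C it measured 10.59, 10.86, 11.08, 10.52, 10.24 and 10.01. Both arms peaked on day 5 and ended near or below their day 3 value, with no SKO array near GFP. The excess over GFP was 45.7-fold on day 3, 71.7-fold on day 5 and 34.7-fold on day 10. From day 5 to day 10 Sostdc1 fell by 1.05 ± 0.17, or 2.07-fold (adjusted p = 0.0134, limma). The call was lost without any 1 of the 4 arrays of these days, with differences of -1.13 to -0.96 and adjusted p of 0.0746 to 0.166.

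Of 24 other measured secreted BMP and Wnt antagonists, 3 were higher and 5 lower on day 3, where 9.22% of all genes were higher and 8.43% lower. Fst, which encodes follistatin, was higher by 2.27-fold, and Dkk3 and Nbl1 were lower by 2.66-fold and 2.59-fold. Among 25 BMP and Wnt ligands, co-receptors and targets, 5 were higher and 3 lower. The ligand genes Wnt2 (3.31-fold) and Bmp6 (2.00-fold) and the BMP target Id1 (1.70-fold) were higher. The 3 lower genes were the receptor genes Lrp5 (-0.57), Lrp6 (-0.48) and Bmpr1a (-0.47). The Wnt target Axin2 differed by -0.05 (adjusted p = 0.882, limma). From day 5 to day 10 the antagonist gene Grem1 fell by 1.23 ± 0.17 (2.35-fold, adjusted p = 0.0056, limma) and Chrdl1 rose by 1.15 ± 0.16 (2.21-fold, adjusted p = 0.0056, limma).

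Pcolce2 encodes an enhancer of the proteinase that trims the C-terminal propeptide of fibrillar procollagen. It read 5.39 and 5.47 in GFP cells and 8.38, 8.04, 8.11, 8.44, 8.26 and 8.16 in SKO cells without vitamin C. With vitamin C the values were 8.58, 8.09, 7.91, 7.99, 8.13 and 7.86. These were the flattest courses of the 10 genes: the day means of days 4 to 10 spanned 0.20, and the excess over GFP stayed between 5.99-fold and 6.88-fold after 8.29-fold on day 3. Of 10 other measured genes of procollagen chains and their processing, 2 were higher and 6 lower on day 3. Over all genes, 9.22% were higher and 8.43% lower. Tll1, a proteinase of the same pathway, went up 5.06-fold (6.72 to 7.03 on the GFP arrays, 9.16 to 9.27 on the SKO arrays), and Col5a1 and Adamts14 were lower by 2.43-fold and 2.23-fold. Unlike Pcolce2, for which the change was 0.00 ± 0.17 (adjusted p = 0.998, limma), Tll1 fell from day 5 to day 10, with a change of -1.12 ± 0.16 (adjusted p = 0.00595, limma), and the difference between the genes was not tested.

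Ceacam1 encodes an adhesion molecule of the immunoglobulin superfamily. It read 3.65 and 3.67 in GFP cells and 6.87, 7.36, 8.20, 8.43, 8.78 and 8.88 in SKO cells without vitamin C, higher on each later day. With vitamin C it read 6.91, 7.31, 8.25, 8.52, 8.51 and 8.34. Both arms climbed until day 6 and all SKO arrays stood above GFP. The excess over GFP went from 9.39-fold on day 3 to 31.7-fold on day 8. Ceacam1 rose from day 4 to day 8 by 1.31 ± 0.18 (2.48-fold, adjusted p = 0.00471, limma). It passed the test without any 1 of the 4 arrays too (1.23 to 1.39, adjusted p 0.0258 to 0.0484). Of 19 other measured genes of the carcinoembryonic antigen family, 0 passed the limma test in either direction on day 3, or between days 4 and 8 or 5 and 10. At an unadjusted p under 0.05, 0 were higher and 1 lower on day 3. The neighbour Ceacam2 differed by 0.23 ± 0.23 on day 3 (adjusted p = 0.551, limma).

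P2ry1 encodes a receptor for extracellular ADP that signals through Gq proteins. Of the 10 genes its GFP arrays differed most, 4.37 without vitamin C and 5.48 with it. SKO arrays read 7.80, 7.36, 7.82, 7.41, 7.26 and 6.85 without vitamin C and 7.93, 6.97, 7.38, 6.70, 6.46 and 6.70 with it. All were above both GFP arrays, by the least on day 8 with vitamin C. The excess over the GFP mean was 7.68-fold on day 3 and 3.61-fold on day 10. From day 5 to day 10 P2ry1 fell by 0.83 ± 0.18 (1.78-fold, adjusted p = 0.0448, limma). The call was lost without any 1 of the 4 arrays (-1.04 to -0.62, adjusted p 0.0796 to 0.353) and after quantile normalization (adjusted p = 0.0596). The day 10 against day 4 difference was smaller, -0.39, and did not pass the test (adjusted p = 0.185, limma). Of 17 other measured nucleotide receptors and ectoenzymes, 2 were higher and 2 lower on day 3, where 9.22% of all genes were higher and 8.43% lower. The higher ones were Nt5e, which makes adenosine from AMP (2.28-fold), and the receptor gene P2ry2 (2.04-fold). The lower ones were the receptor genes P2rx6 (1.67-fold) and P2ry6 (-0.53 ± 0.16, adjusted p = 0.0341, limma). Between days 5 and 10, Nt5e rose (1.003 ± 0.18, adjusted p = 0.0232, limma), and so did P2rx7 (0.85 ± 0.18, adjusted p = 0.0408) and P2ry6 (0.79 ± 0.16, adjusted p = 0.0288). Nt5e and P2rx7 also rose from day 4 to day 8 (1.61 and 0.92, adjusted p = 0.00185 and 0.026, limma). The P2ry1 change from day 4 to day 8 was -0.30 and did not pass (adjusted p = 0.457, limma).

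Gna14 encodes an alpha subunit of the Gq class, the proteins that pass signals from receptors such as P2ry1 to phospholipase C. It measured 4.14 and 4.26 in GFP cells and 7.11, 7.67, 8.66, 8.83, 8.89 and 9.30 in SKO cells without vitamin C. With vitamin C it measured 8.05, 8.61, 9.35, 8.99, 9.34 and 9.40. The array with vitamin C was the higher on all 6 days, and the highest values were those of day 10 in both arms. The excess over GFP was 10.4-fold on day 3 and 35.5-fold on day 10. From day 4 to day 8 Gna14 rose by 0.98 ± 0.21 (1.97-fold, adjusted p = 0.0356, limma). The call was lost without any 1 of the 4 arrays (0.68 to 1.27, adjusted p 0.0503 to 0.211), with array weights (adjusted p = 0.0896) and after quantile normalization (adjusted p = 0.0507). The day 10 against day 4 difference was 1.21 (adjusted p = 0.00359, limma).

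Gnaq, the closest relative of Gna14 on the list and its neighbour on chromosome 19, differed by 0.31 ± 0.15 on day 3 (adjusted p = 0.193, limma), and Vps13a on the other side by 0.99 ± 0.16 (adjusted p = 0.00107, limma). Of 23 other measured genes of Gq and related G protein signalling, 6 were higher and 3 lower on day 3. Over all genes, 9.22% were higher and 8.43% lower. The phospholipase gene Plcb1 (2.22-fold) and Rgs2, which switches Gq off (2.07-fold), were higher, and the protein kinase C gene Prkca was lower (2.54-fold). The inositol trisphosphate receptor gene Itpr2 rose with Gna14 from day 4 to day 8 (1.21 ± 0.20, adjusted p = 0.012, limma).

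Anxa10 encodes an annexin, a family of calcium-dependent phospholipid-binding proteins, and is known from the stomach. It measured 2.83 and 2.86 in GFP cells and 5.97, 5.06, 5.34, 5.05, 4.48 and 3.59 in SKO cells without vitamin C. With vitamin C it measured 5.72, 3.43, 3.82, 3.06, 3.33 and 2.85. Both arms were highest on day 3, and by day 10 the array with vitamin C lay between the GFP arrays. The excess over GFP went from 8.00-fold on day 3 to 2.64-fold on day 4 and 1.30-fold on day 10. From day 5 to day 10 Anxa10 fell by 1.36 ± 0.25 (2.57-fold, adjusted p = 0.0228, limma). The call was lost without the untreated array of day 5 (-1.29, adjusted p = 0.149), the untreated array of day 10 (-0.94, adjusted p = 0.203) or the treated array of day 5 (-1.43, adjusted p = 0.134), and held without the treated array of day 10 (-1.78, adjusted p = 0.0179). The mean of Anxa10 over all arrays also lay below 4.54. The 13 measured genes of the annexin list are 11 other annexins and the annexin partners S100a10 and S100a11. Of these, 5 were higher and 0 lower on day 3 by limma, where 9.22% of all genes were higher and 8.43% lower. All 5 were annexin genes, with Anxa8 at 5.68-fold, Anxa3 at 2.04-fold and Anxa2 at 1.75-fold. At an unadjusted p under 0.05, 6 were higher and 1 lower. From day 5 to day 10, 0 of the 13 passed the limma test, and 3 were lower at an unadjusted p under 0.05.

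Tmem229b encodes a membrane protein of little-known function. Its main probe set read 5.07 and 5.32 in GFP cells and 8.66, 9.44, 9.69, 9.89, 9.99 and 9.67 in SKO cells without vitamin C. With vitamin C it read 9.09, 9.51, 9.63, 9.64, 9.63 and 9.13. All SKO arrays were well above GFP, at 12.9-fold on day 3 and 24.6-fold on day 8, and neither day comparison passed the test (0.33 ± 0.18 and -0.26 ± 0.18, adjusted p = 0.400 and 0.653, limma). The second probe set also separated SKO from GFP, but by less. It read 4.59 to 5.03 on the GFP arrays and 6.76 to 7.86 on the SKO arrays, or 4.52-fold on day 3. Its log2 difference of 2.175 is below the 2.94 of P2ry1, so the place of Tmem229b among the 10 rests on the main probe set. From day 5 to day 10 the second probe set changed by 0.109, which was not tested. Plekhh1, its neighbour on chromosome 12, was higher on day 3 by 1.53 ± 0.23 (adjusted p = 0.000636, limma), and Plek2 on the other side by 0.68 ± 0.22 (adjusted p = 0.0473, limma).

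Across the 10 genes, 19 of the 20 flanking protein-coding genes were measured. Of these, 5 were higher on day 3 (Akr1c14, Trpc1, Vps13a, Plek2 and Plekhh1) and 2 lower (Usp22 beside Aldh3a1 and Spock3 beside Anxa10). Over all genes, 9.22% were higher and 8.43% lower. Differences of the flanking genes ran from -1.34 to 1.53. All flanking genes lay below the smallest difference of the 10 genes, as the choice of the 10 required of every other gene but Pou5f1.

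With vitamin C, 1 of the 10 genes, Anxa10, was lower over days 4 to 10, where 0.386% of all genes were lower and 0.933% higher with it. The treated array was the lower one on 5 of 5 days, with differences of -1.62, -1.52, -1.99, -1.15 and -0.74 on days 4, 5, 6, 8 and 10, which gave a mean of -1.40 ± 0.16 (2.65-fold lower, adjusted p = 0.00242, limma). Without any 1 pair of days the difference was between -1.57 and -1.26, with adjusted p of 0.00144 to 0.0207. The treated arrays of days 4 to 10 read only 2.85 to 3.82, the GFP arrays of day 3 being at 2.83 and 2.86. At so weak a signal the size of the difference on each day can be understated. On day 3 the difference was -0.25 in SKO cells and 0.04 in GFP cells, from 1 array each. Between days 3 and 4 Anxa10 went from 5.72 to 3.43 with vitamin C and from 5.97 to 5.06 without it, which is a description since day 3 chose the gene. Over days 4 to 10, 4 of 18 pluripotency genes and 1 of 14 fibroblast and 1 of 10 endothelial markers were higher with vitamin C, and 1 of 10 neural markers was lower, and their part in the Anxa10 difference was not tested.

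P2ry1 was also lower with vitamin C on 5 of 5 days, by -0.50 ± 0.11, but missed the threshold (adjusted p = 0.0681, limma). It passed with an intensity trend (adjusted p = 0.0274) and without the 6646 genes of lowest signal (adjusted p = 0.0377). On day 3 its difference was positive in both kinds of cells, 1.11 in GFP cells and 0.13 in SKO cells, from 1 array each and with no test. Gna14 was higher with vitamin C on 5 of 5 days, by 0.47 ± 0.13, and also missed the threshold (adjusted p = 0.144, limma). The remaining 7 genes differed by -0.23 to 0.45 with adjusted p of 0.491 to 0.802. The largest of these, Akr1c18 at 0.45 ± 0.23, combines differences of 1.28, 1.15, 0.32, 0.22 and -0.70 on days 4, 5, 6, 8 and 10. The median of the 10 genes was -0.17, and that of all genes -0.01.

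**Figure D4:**
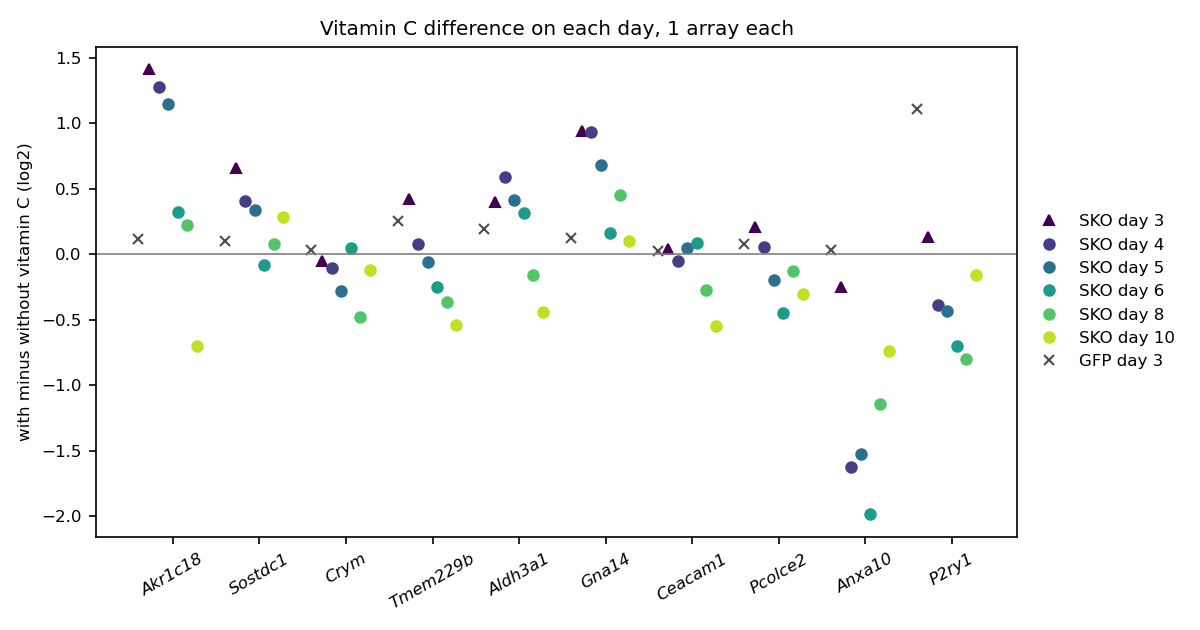
Difference between the arrays with and without vitamin C (log2, vertical axis) for each gene, with triangles for SKO cells on day 3, circles for later days coloured by day, and crosses for GFP cells on day 3. All Anxa10 circles lie between -1.99 and -0.74, Akr1c18 goes from 1.28 on day 4 to -0.70 on day 10, and the P2ry1 cross lies at 1.11.

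On day 3, the day after treatment began, 8 of the 10 genes were higher with vitamin C in SKO cells, where 51.1% of all genes were, led by Akr1c18 at 1.41 and Gna14 at 0.94. On day 10, 8 of the 10 were lower, where 49.7% of all genes were, with Sostdc1 (0.29) and Gna14 (0.10) the exceptions. Each of these counts comes from 1 pair of arrays, the day 3 pair being one that chose the genes, and is a description. The change of the vitamin C difference per day was called for none of the 10 genes and for 0% of all genes by limma, with 1278 genes, 3 of the 10 among them, at an unadjusted p under 0.05. Slopes of the 10 genes ran from -0.32 for Akr1c18 to 0.16 ± 0.06 for Anxa10 (adjusted p = 0.680, limma).

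Courses were also compared by correlation over the 10 SKO arrays of days 4 to 10, which pair by day and are not known to come from independent cultures. Among themselves the highest Pearson correlations were between P2ry1 and Anxa10 (0.880), Aldh3a1 and Ceacam1 (0.871) and Pcolce2 and Tmem229b (0.786), and the lowest was between Gna14 and Anxa10 (-0.638). Among 3804 genes that ranged over at least 1 log2 unit on these arrays, the closest to Anxa10 were Hapln1 (0.961), which links hyaluronan to proteoglycans, and Edil3 (0.933), a secreted integrin ligand. The closest to Ceacam1 were the transcription factor gene Etv1 (0.960) and Necab1 (0.954), and to Gna14 Corin (0.972), a cell-surface protease, and Depdc7 (0.969). Those of Aldh3a1 were Trim9 (0.967) and Foxo4 (0.955), those of P2ry1 Rorb (0.952) and Tcaf2 (0.925), and those of Sostdc1 Ect2 (0.923), which acts in cytokinesis, and Coq3 (0.910). Tmem229b was closest to Tac1 (0.918) and Svs5 (0.907), Crym to Capn6 (0.917) and Lysmd4 (0.890), and Pcolce2 to Hils1 (0.903) and Nr2f1 (0.880). Akr1c18 had the weakest matches, Dnah6 (0.837) and Vtcn1 (0.826). None of these 20 genes was one of the 10, and their day 3 differences ran from -0.78 for Capn6 to 2.05 for Tcaf2.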

How the data were processed

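Values came from 14 Affymetrix whole-transcript arrays. The deposited log2 signals, 1 per probe set and array, were made by the authors with RMA and Partek, per the submitters' processing notes (versions not given in the sources used here). Their log2 scale was read from the range of the values (0.724 to 14.1). Of 28853 probe sets, 21789 had 1 symbol, 1621 several and 5443 none. These gave 19938 genes, 999 with several probe sets.

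Linear models were fitted with limma 3.58.1 (R 4.3.3, moderated by eBayes; Benjamini-Hochberg adjustment over all genes, threshold 0.05) to the 10 SKO arrays of days 4 to 10, with day and vitamin C as factors (4 residual degrees of freedom; 3 for the slope). The labels pair treated and untreated arrays by day. SKO against GFP used all 14 arrays. P-values measure the spread left after day and vitamin C are fitted, which is how the vitamin C difference varied between days. They do not measure the spread between independent cultures. No label says whether the days come from 1 infection or several. Day 3 arrays were kept out of the main tests on the 10 genes because they chose them. The genes and gene lists were chosen with earlier results of these data known. Named genes were the 10, the next 2 by rank, the 2 of highest correlation with each, and up to 3 called genes of each list, with the flanking genes.

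Other settings tried were median centring, quantile normalization, dropping the 6646 genes of lowest signal, robust variances, an intensity trend, array weights, averaging probe sets, leaving out arrays or days, all 12 SKO arrays, a linear day term, and day 10 against day 4. Days 4, 6 and 8 alone, and GFP against SKO for vitamin C, were added after the data were seen. The latter is not reported, since its GFP side is 1 pair of arrays that also chose the genes. The tests were checked on simulated data. Figures were drawn with matplotlib 3.10.9.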

Additional observations from a re-analysis of the deposited data

How the results depend on the processing

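With 1 array per condition and day, the day calls rest on 4 arrays each, and the number of arrays limits the precision. Leaving out 1 array or day pair at a time, the count of the 10 genes called was 1 without any array for day 8 against day 4 (3 with all), 0 to 1 for day 10 against day 5 (3 with all) and 2 to 5 for any day (5 with all). Counts over all genes were then 68 to 275 for vitamin C (263 with all), 59 to 626 for day 8 against day 4 (447), 29 to 96 for day 10 against day 5 (355), 650 to 2454 for any day (1991) and 0 to 5 for the slope (0). Without the replicate block, with a linear day term, vitamin C called 151 genes, and days 4, 6 and 8 alone called 62. Anxa10 kept its vitamin C call in both.

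An intensity trend called 2 of the 10 genes for vitamin C, and 534 genes for day 10 against day 5, 3129 for any day and 4 for the slope, 1 of them among the 10. Array weights called 210 genes for day 8 against day 4, 1 of them among the 10, 850 for day 10 against day 5, and 16 for the slope, 1 among the 10. Day 10 against day 4 called 2875 genes and 5 of the 10. For the slope, leaving out weak genes called 1 gene, and days 3 to 10, which include the arrays that chose the genes, called 7, 1 among the 10. The gene called for its slope was Akr1c18 each time. The median SKO minus GFP difference of the 10 genes (3.38 on day 3) was 4.11 with the SKO arrays of day 4 and 3.63 in the arm with vitamin C alone. Leaving out weak genes removes Anxa10.

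The values whose sign turned were all uncalled. With day 10 against day 4, Pcolce2 was at -0.0541 and Tmem229b at -0.0782 (0.13 and 0.33 for day 8). With median centring Pcolce2 changed by -0.0305 from day 5 to day 10. The slope was 0.0057 for Crym with array weights and -0.0413 for P2ry1 with day 3. Leaving out 1 array or day pair, ranges crossing 0 were -0.57 to 0.47 for Akr1c18 and -0.0299 to 0.29 for Pcolce2 (day 8 against day 4), -0.21 to 0.51 for Aldh3a1 and -0.0602 to 0.0646 for Pcolce2 (day 10 against day 5), and, for the slope, -0.0763 to 0.0068 for Crym, -0.0928 to 0.0131 for Sostdc1, -0.0438 to 0.0044 for Pcolce2 and -0.11 to 0.0563 for P2ry1.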
